A study of Rattus norvegicus with 16 samples.

Results

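The miRNA hairpins rno-mir-143 and rno-mir-145, neighbours on rat chromosome 18, were followed by arm and by read end across 6 tissues and 2 strains. Hairpins were matched by their identifier, which gave 2 of the 392 hairpins and 4 of the 712 hairpin arms of the files, with 916036 of 15196294 reads. The pair was chosen by its reads, since mir-145-5p had the most reads of all arms in heart and testis. Its levels, the ratio of the hairpins and the shares of their arms are therefore described across tissues without a test. The ratio was tested between strains only.

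Heart, testis, kidney, spleen, liver and whole brain came from 1 adult male rat of BN-Lx, a polydactyly-luxate brown Norway strain, and 1 of SHR, the spontaneously hypertensive rat. These 12 libraries are called the six-tissue set. Livers of 2 further adult males of each strain were sequenced as well (further livers), which gives 3 livers per strain. Each library is a whole organ, so fewer cells of a type and less RNA per cell cannot be told apart, and in the six-tissue set a strain is 1 rat. Small RNA reads alone were measured, so no mRNA marker of smooth muscle was at hand to check the cell type after which the pair is commonly named.

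Libraries held 403453 to 1064894 reads on hairpins in 5 tissues of the six-tissue set, 26880 and 29131 in testis, and 1167607 to 3229461 in the further livers. Testis was amplified with 16 PCR cycles and the SHR liver of the six-tissue set with 17, against 14 for its other libraries. The reads carry no molecular identifiers, so the intervals below cover counting error only. A level is given as reads over the ocm, the outlier-corrected mean of a library, for which the 3 arms with most reads are left out before the reads per arm of rat hairpins are averaged.

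A miRNA is cut from a hairpin that has a 5p and a 3p arm, and 1 of the arms is usually loaded into the silencing complex in preference to the other. Bases 2 to 8 of the mature miRNA, the seed, pair with the target mRNA, so a shift of the 5′ end changes the seed while a shift of the 3′ end does not. mir-143 and mir-145 are made from 1 primary transcript and are best known from smooth muscle of vessels and viscera, where serum response factor and myocardin drive them and where mir-145 favours the contractile state.

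On GRCr8 (RefSeq) mir-143 lies at chr18:57371349-57371453 and mir-145 at chr18:57369983-57370070, both on the minus strand, with 1278 bases between them and mir-143 on the 5′ side. The 4 mature forms of RefSeq are shown because every read end below is counted from them. Capitals mark the seed, and each of the 4 arms has a seed of its own.
mir-143-5p: gGUGCAGUgcugcaucucugg
mir-143-3p: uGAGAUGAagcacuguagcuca
mir-145-5p: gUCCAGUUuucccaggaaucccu
mir-145-3p: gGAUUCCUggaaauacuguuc

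The arms were very unequal in reads. Over all 16 libraries mir-145-5p had 886208 reads, mir-143-3p 29240, mir-145-3p 547 and mir-143-5p 41. All read values of the pair were whole numbers.

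mir-145-5p, known for repressing the transcription factors KLF4 and KLF5, was the arm with most reads of the whole library in both heart and both testis libraries. In heart its reads numbered 74892 (BN-Lx) and 108076 (SHR), or 18.6% and 17.1% of all reads on hairpins. In testis it had 3658 and 3671 reads, or 13.6% and 12.6%. Elsewhere in the six-tissue set it ranked between 2 and 13, lowest in BN-Lx brain, where 20687 reads made 1.94% of the library.

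Over the ocm, mir-145-5p stood at 163 (BN-Lx) and 148 (SHR) in heart, and below the strains are given in this order. It stood at 116 and 104 in testis, at 71.9 and 67.4 in spleen and at 70.0 and 39.2 in kidney. Liver of the six-tissue set had 48.9 and 44.0, and brain 14.5 and 18.1. Heart was above testis, testis above spleen and liver above brain in both strains. Spleen and kidney, and kidney and liver, overlapped between the strains, and kidney had the widest gap between strains.

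Mean heart was 9.55-fold above mean brain and 3.33-fold above the mean of spleen, kidney, liver and brain, at 3.17-fold in BN-Lx alone and 3.51-fold in SHR alone. Testis was 2.36-fold above the same 4 tissues. With TMM scaling in place of the ocm heart kept its place at 3.75-fold, while testis fell to the fourth place at 1.12-fold, so its place rests on the scaling.

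mir-143-3p, known for repressing ELK1, followed a like order at a lower level. Heart held 3518 and 5381 of its reads, but testis only 144 and 116. Its level was 7.65 and 7.38 in heart, 4.57 and 3.30 in testis, 3.65 and 4.03 in spleen and 3.87 and 2.80 in kidney. It was 2.63 and 2.55 in liver of the six-tissue set and 0.663 and 0.875 in brain. Heart stood apart above, brain stood apart below, and testis, spleen and kidney overlapped. With TMM scaling testis fell to the fifth place, at 2705 and 2283 TMM-scaled CPM (reads scaled to library size), below the livers of the six-tissue set at 3394 and 3513.

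mir-145-3p, the passenger arm, had between 1 read (BN-Lx testis) and 88 reads (BN-Lx spleen) within the six-tissue set. Its level was 0.106 and 0.0946 in heart, 0.103 and 0.0798 in spleen, 0.0762 and 0.0820 in kidney, and 0.0105 and 0.0106 in brain. In liver of the six-tissue set it was 0.0379 and 0.0588. Brain was apart at the bottom. Heart and spleen overlapped, as did spleen and kidney, while both heart libraries lay above both kidney libraries. The 1 read of BN-Lx testis and the 4 of SHR testis allow no place in the order. mir-143-5p had 15 reads in the 12 libraries, 3 and 5 of them in heart, and 0 in 5 libraries.

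**Figure D1:**
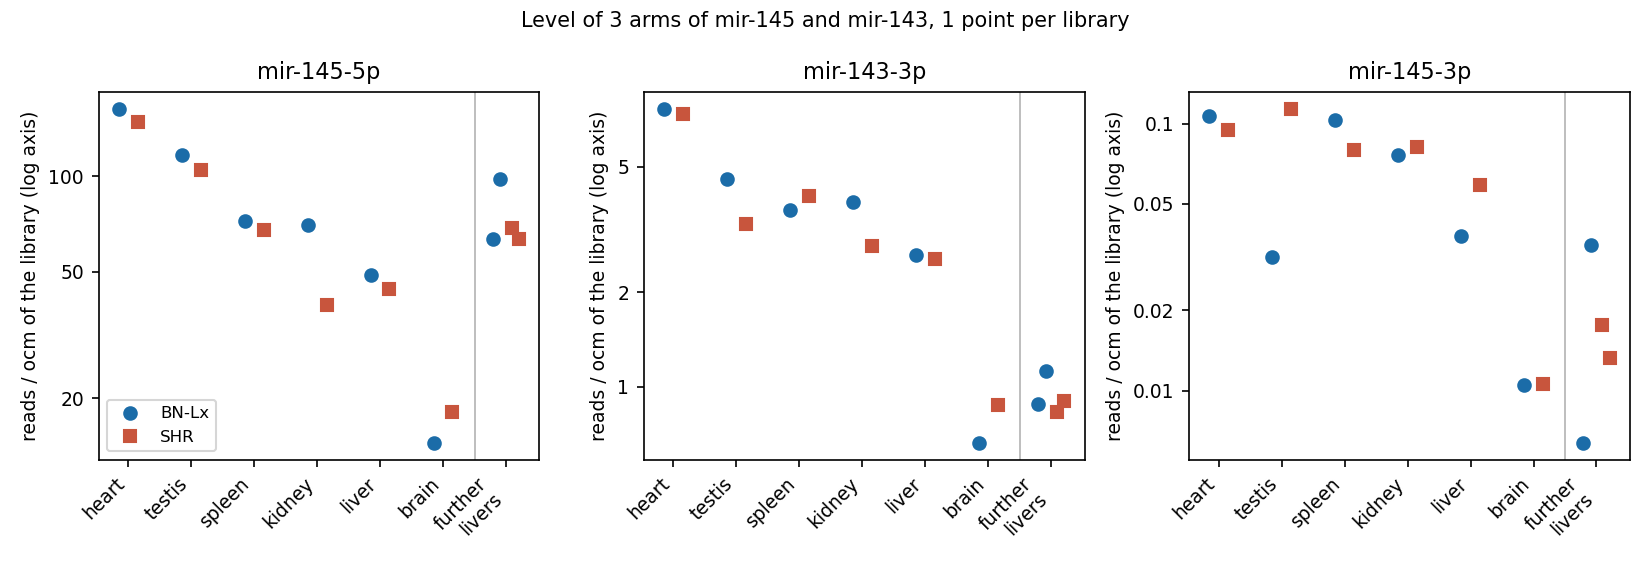
Reads divided by the ocm of the library (log axis) of mir-145-5p, mir-143-3p and mir-145-3p, 1 point per library, BN-Lx as circles and SHR as squares; the 4 further livers stand right of the line. mir-145-5p falls from 163 and 148 in heart to 14.5 and 18.1 in brain, and in the further livers it is above, and mir-143-3p below, the livers of the six-tissue set.

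The passenger arms held a small share of the reads in the six-tissue set. There mir-145-3p made between 0.0273% (exact 95% interval 0.000692% to 0.152%) of the mir-145 reads in BN-Lx testis and 0.209% (0.162% to 0.265%) in SHR kidney, with a median of 0.0932% over the 12 libraries. The heart of BN-Lx had 0.0654% (0.0484% to 0.0864%) and that of SHR 0.0638% (0.0496% to 0.0807%). Kidney differed between the strains, with 0.109% (0.0814% to 0.142%) in BN-Lx, whose interval overlaps that of BN-Lx heart. mir-143-5p made at most 0.105% of the mir-143 reads in the six-tissue set, and the 5 libraries with 0 reads allow shares from up to 0.111% in BN-Lx kidney to up to 2.59% in SHR testis. In the further livers the share of mir-145-3p was 0.01001% to 0.0357%, against 0.0776% and 0.133% in the livers of the six-tissue set. That of mir-143-5p was 0.0981% to 0.951% there, on 2 to 14 reads, the highest in BN-Lx liver 2 (0.412% to 1.87%).

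Per read of mir-143-3p there were 13.98 to 31.6 reads of mir-145-5p in the six-tissue set, with a median of 19.9. Such a ratio is one of reads and not of molecules, since small RNAs are captured with unequal efficiency, but it needs no scaling of the library. In heart it was 21.3 and 20.1, in testis 25.4 and 31.6, in spleen 19.7 and 16.8, and in kidney 18.1 and 13.98. In liver of the six-tissue set it was 18.6 and 17.2, and in brain 21.8 and 20.7. Brain and heart lay close together in this ratio, while their mean levels differed 9.55-fold for mir-145-5p and 9.77-fold for mir-143-3p.

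No difference of the ratio between the BN-Lx rat and the SHR rat was detected over the tissues. On the log2 scale SHR minus BN-Lx was -0.08 in heart, -0.23 in spleen, -0.37 in kidney, -0.11 in liver, -0.08 in brain and 0.32 in testis. The mean was -0.09 ± 0.23 (SD, n = 6 tissues), lower in SHR in 5 of 6 tissues, with an exact two-sided sign-flip permutation p of 0.344. Without testis the mean was -0.18 over 5 tissues and the exact permutation p was 0.0625, the smallest that 5 pairs can give. All tissues of a strain came from the same rat here, so the tissues are not independent replicates of strain. The SD and the p values therefore describe these rats across tissues and cannot speak for the strains.

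The further livers stood apart, at ratios of 72.0 and 87.0 (BN-Lx) and of 82.4 and 70.3 (SHR). All 4 lay above all 12 libraries of the six-tissue set, by their counting intervals too, while the 2 livers of that set had 18.6 and 17.2. With the 3 livers of each strain together, the log2 ratio was 5.61 ± 1.21 (SD, n = 3) in BN-Lx and 5.54 ± 1.24 (SD, n = 3) in SHR. An exact permutation test gave a two-sided p of 0.7, and 3 against 3 cannot go below 0.1. Each strain mixes livers of both sets. The difference between the sets is left in these SDs and in the test, which therefore says little about strain.

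**Figure D2:**
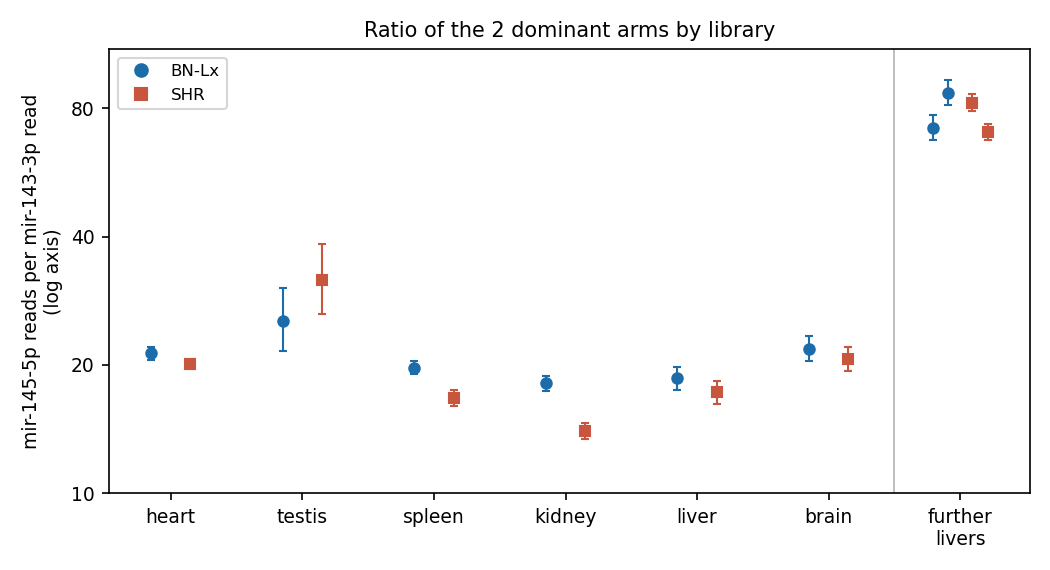
Reads of mir-145-5p per read of mir-143-3p (log axis) in each library, with exact 95% counting intervals; BN-Lx as circles, SHR as squares. The 12 libraries of the six-tissue set lie between 13.98 and 31.6 and the 4 further livers, right of the line, between 70.3 and 87.0.

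The difference between the liver sets was then tested arm by arm, a comparison chosen after seeing the data. edgeR (quasi-likelihood test, strain as a term) called 77 of 302 arms, or 25.5%, at an adjusted p of 0.05, with 53 higher and 24 lower in the further livers. mir-145-5p rose from 48.9 and 44.0 reads over ocm to 63.6, 98.0, 68.8 and 63.2, with a log2 fold change of 0.99 ± 0.27 (SE) and an edgeR adjusted p of 0.0411. mir-143-3p fell from 2.63 and 2.55 to 0.883, 1.13, 0.834 and 0.900, with a log2 fold change of -1.13 ± 0.23 (SE) and an edgeR adjusted p of 0.0220. The sets overlapped for neither arm. mir-145-3p stood at -1.09 ± 0.65 (SE) with an edgeR adjusted p of 0.262, and mir-143-5p was below the filter on low counts.

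These calls rest on few livers. Leaving out any 1 of the 6 livers moved the adjusted p of mir-145-5p to between 0.0547 and 0.0896, with log2 fold changes of 0.92 to 1.17. That of mir-143-3p went to between 0.0547 and 0.118 except without SHR liver 3, where it was 0.0294, with log2 fold changes of -1.14 to -0.97. Scaled by the ocm, mir-145-5p had a log2 fold change of 0.65 and an adjusted p of 0.0932, and mir-143-3p -1.47 and 0.0114. The median of all arms moved from 0.16 with TMM to -0.22 with the ocm. RLE factors gave 0.73 with an adjusted p of 0.0527 and -1.39 with 0.00916. Rats, depth and the presence of reads under 17 nt also differ between the sets and cannot be told apart from each other, and with reads of at least 17 nt alone the log2 fold changes were 0.99 and -1.13.

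Neither strain comparison called an arm of the pair. In liver, mir-145-5p stood at 48.9, 63.6 and 98.0 reads over ocm in BN-Lx and at 44.0, 68.8 and 63.2 in SHR, and the strains overlapped. Its log2 fold change (SHR over BN-Lx) was -0.14 ± 0.44 (SE). mir-143-3p stood at 2.63, 0.883 and 1.13 against 2.55, 0.834 and 0.900, with -0.05 ± 0.56 (SE). mir-145-3p stood at 0.0379, 0.00636 and 0.0350 against 0.0588, 0.0176 and 0.0133, with 0.21 ± 0.79 (SE). Each of these 3 had an edgeR adjusted p of 0.994, and mir-143-5p, with 0 to 14 reads a liver, was below the filter. edgeR called 0 of 270 arms (0%), 8 arms had an unadjusted p under 0.05, and DESeq2 called 1 of 550 (0.182%), no arm of the pair. The difference between the liver sets is left in these standard errors. With the liver set as a term, chosen after seeing the data, edgeR called 0 of 302 arms. The log2 fold changes were then -0.24 ± 0.25 (SE) for mir-145-5p, -0.15 ± 0.23 (SE) for mir-143-3p and -0.034 ± 0.62 (SE) for mir-145-3p.

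Over the 6 tissues with tissue as a term, mir-145-5p had a log2 fold change (SHR over BN-Lx) of -0.16 ± 0.15 (SE). mir-143-3p had -0.06 ± 0.22 (SE) and mir-145-3p 0.14 ± 0.38 (SE). Each had an edgeR adjusted p of 0.997, where edgeR called 0 of 458 arms (0%), 7 had an unadjusted p under 0.05, and DESeq2 called 0 of 687 with 18 under 0.05. By reads over ocm mir-145-5p was lower in SHR in 5 of 6 tissues. With TMM scaling it was higher in SHR in brain and in testis, the latter at 72248 against 68712 TMM-scaled CPM in BN-Lx. The edgeR test compares 1 rat per strain.

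**Figure D3:**
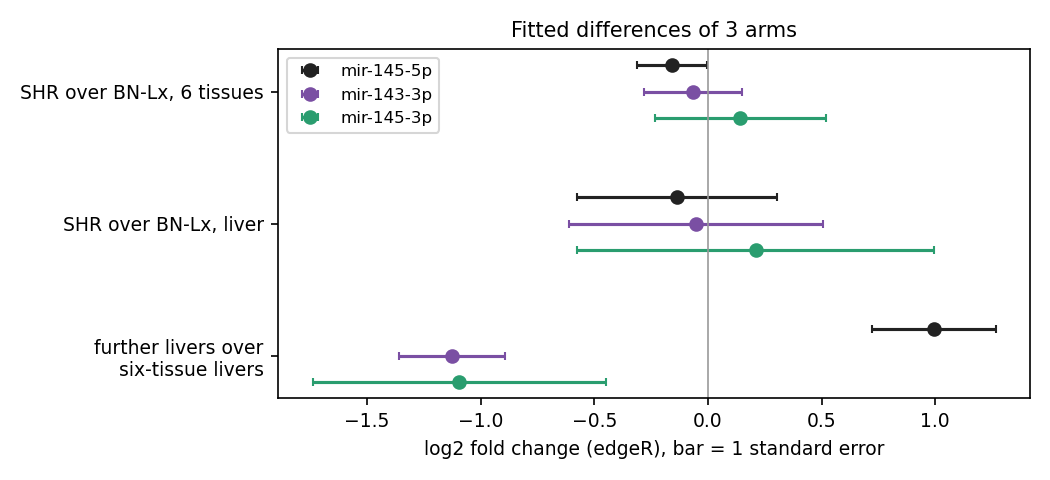
Log2 fold changes fitted by edgeR for mir-145-5p, mir-143-3p and mir-145-3p, with bars of 1 standard error, in 3 comparisons. The strain differences lie between -0.16 and 0.21, while in the further livers mir-145-5p stands at 0.99 and mir-143-3p at -1.13.

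Read ends were not used to choose the pair. Of mir-145-5p reads, 99.6% to 99.8% began at the RefSeq start in every library of the six-tissue set, a mean of 99.7% that exceeded that of 148 of the 169 arms with enough reads. Of mir-143-3p reads, 96.5% to 100% did, a mean of 97.4% that exceeded only 69 of the 169 arms. The exact permutation test of tissue (one-sided, with the strains as replicates) gave an adjusted p of 1 for both.

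mir-145-3p had a loose 5′ end. Only 33.3% to 75.0% of its reads began at the RefSeq start in the 10 libraries of 5 tissues with at least 10 reads, and only 4 of the 169 arms had a lower mean than its 54.6%. The forms with most reads at each start are shown because the shift moves the seed, marked by capitals. The form of RefSeq had 103 reads over the 12 libraries, a form 1 base longer at the 3′ end 104, and those that begin 1 and 2 bases later 45 and 86.
start as in RefSeq: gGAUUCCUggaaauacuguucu
start 1 base later: gAUUCCUGgaaauacuguucu
start 2 bases later: aUUCCUGGaaauacuguucuu

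By tissue, 43.2% of mir-145-3p reads of BN-Lx spleen and 38.6% of SHR spleen began at the RefSeq start, 36.4% and 38.6% began 2 bases later. In heart these shares were 51.0% and 63.8%, and 18.4% and 5.80%. In kidney they were 56.6% and 57.4%, and 30.2% and 29.4%, so spleen and kidney held more of the latest start than heart in both strains, a difference that was not tested by itself. Across tissues the share of the RefSeq start gave an exact permutation p of 0.163 and an adjusted p of 0.391, with 12 to 88 reads per library behind each share. Start positions varied by tissue in 1 of 168 arms tested (0.595%), none of them of the pair.

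The 3′ ends were spread over several bases. In mir-145-5p 57.8% to 71.1% of reads ended as in RefSeq. That share was 71.1% and 67.9% in spleen, 63.5% and 64.9% in kidney, 62.9% and 65.4% in testis, 64.2% and 62.4% in liver, 63.3% and 61.3% in brain, and 59.0% and 57.8% in heart. Spleen was above and heart below all other tissues in both strains. The exact permutation test of tissue gave p of 0.00558 and an adjusted p of 0.106 over 169 arms, which misses the threshold, and 0 of the 169 arms (0%) were called by the end position, with 42 at an unadjusted p under 0.05.

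The forms of mir-145-5p with most reads are shown because they share 1 seed and differ at the 3′ end only. The form of RefSeq had 62.6% of the reads of the arm in the 12 libraries, the form 1 base shorter 15.4% and the form 1 base longer 8.53%.
mir-145-5p as in RefSeq: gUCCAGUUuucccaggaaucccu
1 base shorter: gUCCAGUUuucccaggaauccc
1 base longer: gUCCAGUUuucccaggaaucccuu

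mir-143-3p was mostly shorter than its RefSeq form of 22 nt, which had 10.5% of its reads. Forms of 21 and 20 nt held 38.02% and 35.01%, again with 1 seed.
21 nt: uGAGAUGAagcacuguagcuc
20 nt: uGAGAUGAagcacuguagcu
Its mean read length was shortest in liver, at 20.17 nt in BN-Lx and 20.27 nt in SHR, and longest in testis at 20.67 and 20.54 nt and in kidney at 20.55 and 20.61 nt. Heart had 20.42 and 20.32 nt, spleen 20.40 and 20.54 nt and brain 20.36 and 20.41 nt. The exact permutation test of tissue gave p of 0.0104 and an adjusted p of 0.0941, and 5 of 169 arms (2.96%) were called by length, none of them of the pair. The mean length of mir-145-5p, 22.53 to 22.67 nt, gave an adjusted p of 0.424 in the same exact permutation test.

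In the further livers the 3′ end of mir-145-5p lay further out, with a mean length of 22.69 to 22.80 nt against 22.67 and 22.64 nt in the livers of the six-tissue set. Its reads of 21 nt made 3.81% to 5.49% there. Over all 12 libraries of the six-tissue set, not its livers alone, they made 6.38% to 9.55%. mir-143-3p had 20.32 to 20.66 nt in the further livers, above both livers of the six-tissue set. The mean length over all arms was also longer in the further livers, at 21.79 to 21.94 nt against 21.66 and 21.73 nt, and its part in these lengths was not tested. These lengths were compared after seeing the data and without a test.

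**Figure D4:**
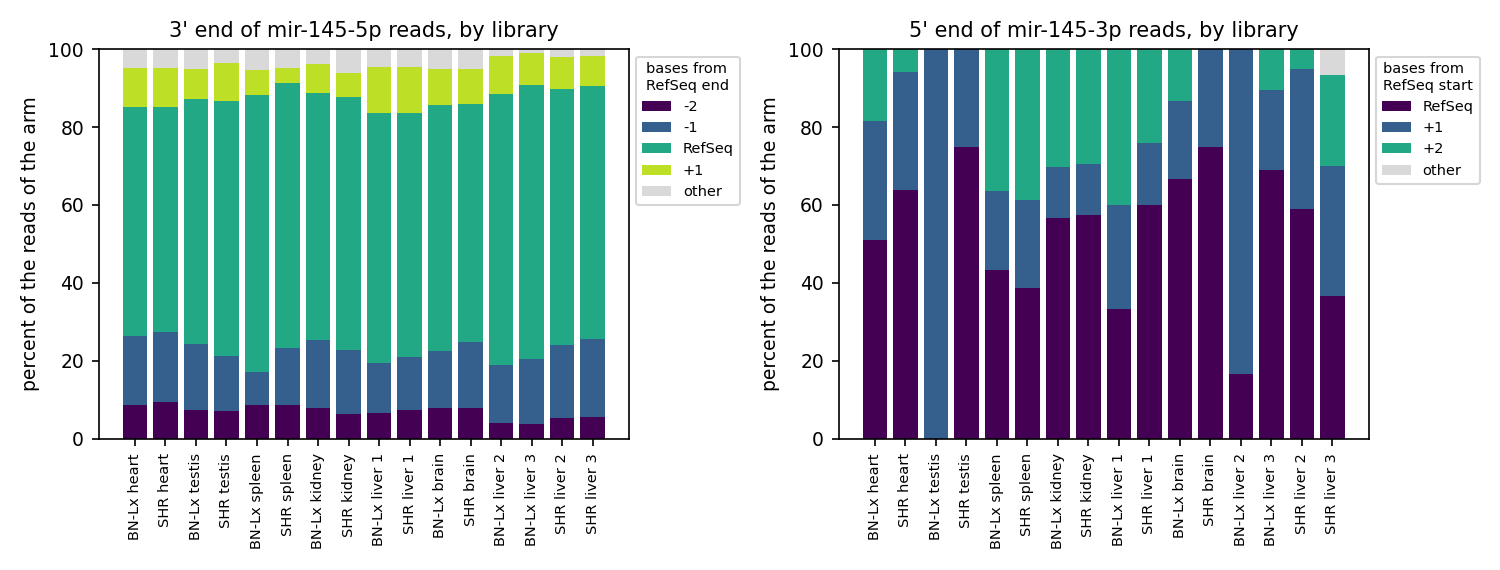
Percent of the reads of mir-145-5p by 3′ end (left) and of mir-145-3p by 5′ end (right) in each of the 16 libraries, coloured by bases from the RefSeq end or start. The RefSeq end of mir-145-5p holds 57.8% of its reads in SHR heart and 71.1% in BN-Lx spleen; the shares of mir-145-3p rest on 1 read in BN-Lx testis, 4 in SHR testis and 6 in BN-Lx liver 2.

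Arms with a like pattern were ranked by Pearson's r of log2 (reads/ocm + 0.01) over the 12 libraries, among arms with at least 100 reads. These are descriptions, since the points share tissues, rats and scaling. mir-143-3p was the arm most like mir-145-5p and the reverse, at r = 0.962 (0.898 without brain, a setting chosen after seeing the data). Of 400 arms of other hairpins, those most like mir-145-5p were mir-214-3p (r = 0.876), mir-224-5p (0.859), mir-199a-5p (0.838), mir-339-3p (0.791) and mir-542-3p (0.741). Those most like mir-143-3p were mir-214-3p (0.958), mir-199a-5p (0.900), mir-339-3p (0.808), mir-199a-3p (0.763) and mir-152-3p (0.761).

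The likeness rested in part on the low brain libraries. Without them, mir-214-3p kept r = 0.837 with mir-143-3p and 0.600 with mir-145-5p, and mir-224-5p kept 0.775 with mir-145-5p. mir-339-3p and mir-152-3p fell to -0.12 and -0.19 with mir-143-3p. Few reads lie behind mir-224-5p and mir-339-3p, with 205 and 221 over the 12 libraries. In testis, where its level was highest at 0.222 and 0.227 reads over ocm, mir-224-5p had 7 and 8 reads. There mir-339-3p had 2 and 2. mir-214-3p, made from a transcript shared with a mir-199a copy, had 0.309 and 0.251 reads over ocm in heart and 0.00909 and 0.00969 in brain.

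Arms of striated muscle gave another picture of heart. mir-1-3p, the main miRNA of cardiac and skeletal muscle, had a mean of 18.5 reads over ocm in heart and at most 0.0530 elsewhere. mir-133a-3p, mir-133a-5p and mir-133b-3p had means of 4.25, 4.02 and 3.73 in heart and at most 0.113 elsewhere. Of the 8 of 14 arms of this list with at least 100 reads, 7 were highest in heart. That compares with 22 of the 392 arms outside the pair and the list. The exception, mir-206-3p, was named after its values were seen. It was highest in liver, at a mean of 0.0778 against 0.00217 in heart, with r = -0.64 with mir-145-5p. The median r of the list with mir-145-5p was 0.573, against -0.22 over those 392 arms. mir-145-5p was likewise highest in heart, but its level was 14.5 or more in every library.

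Of the vessel and stroma list 9 of 12 arms had at least 100 reads. Of these, 4 were highest in heart, against 25 of the 391 arms outside the pair and the list. The median r of the list was 0.334 with mir-145-5p and 0.434 with mir-143-3p, against -0.21 and -0.19 over those 391. mir-21-5p had most reads and was highest in spleen, at a mean of 112 reads over ocm. mir-126-3p, known from endothelium, was highest in heart at 16.03, with r = 0.220 with mir-145-5p. mir-199a-3p and mir-199a-5p had r = 0.706 and 0.838. For 3 of the 9, named after their values were seen, r with mir-145-5p was negative, at -0.69 for mir-221-3p, -0.47 for mir-222-3p and -0.28 for mir-221-5p. In the strain comparisons 0 of the 6 striated muscle arms and 0 of the 8 vessel and stroma arms tested in liver were called by edgeR, and 0 of 9 and 0 of 11 over the 6 tissues.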

How the data were processed

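The authors sequenced small RNAs on SOLiD. After linker trimming, SHRiMP placed the reads on pre-miRNA hairpins. The authors deposited, per library, an estimated count of perfectly matching reads for each start and end on a hairpin, not normalized. A read that fits several hairpins was divided between them. Columns for start and end hold positions.

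Here, reads of the pair were given to the 5p or 3p arm by a midpoint within 10 nt of that of the RefSeq arm, those of other hairpins by the side on which their midpoint lay of a boundary (midway between the main read positions or, with 1 such position, the hairpin's centre), and summed per library. Counts were rounded to whole numbers for edgeR 4.0.16 (quasi-likelihood test, TMM, filterByExpr, two-sided, Benjamini-Hochberg over all arms at 0.05) and DESeq2 1.42.0, in R 4.3.3. Read ends were compared by exact permutation of the pairing of libraries (10395 pairings for 6 tissues, 945 for 5) in arms with at least 10 reads in both strains of at least 5 tissues. Other software was scipy 1.17.1, numpy 2.4.6, pandas 2.3.3 and Python 3.11.15. Intervals are Clopper-Pearson, 95%, and a count of 0 allows 3 reads.

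The members and lists were chosen with earlier results of these data known. Named are the 4 arms of the pair, the 5 arms of other hairpins most like mir-145-5p and the 5 most like mir-143-3p, and of the lists of striated muscle and of vessel and stroma arms the counts and up to 4 examples, those with most reads. Replicate number 1 was given here to both livers of the six-tissue set, which had 14 and 17 PCR cycles. After group means were removed, correlations of same-numbered livers (270 arms) were 0.670, 0.571 and 0.300. In both strains number 1 is the six-tissue set and numbers 2 and 3 are the further livers. The difference between these sets therefore enters the correlations, which cannot show whether the numbers pair livers. The numbers served only as a replicate block in an alternative. Alternatives changed the tool, scaling, filter, reads counted and libraries. Tests were tested on simulated data. The list of piRNA clusters was not used here.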

Additional observations from a re-analysis of the deposited data

Results flagged for a closer look

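Reads of mir-145 outside both arms appeared although no comparison uses them. There were 9 of 886764 mir-145 reads, all from base 37 to base 55 of the hairpin, that is across the loop, with 1 in BN-Lx spleen, 1 in SHR spleen, 2 in SHR heart and 5 in SHR liver 2.

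Some tissues moved against the others between the strains, and these differences were not tested, since each tissue has 1 library per strain. On the log2 scale, SHR minus BN-Lx, the ratio of mir-145-5p to mir-143-3p was 0.32 in testis and negative in the other 5 tissues. By reads over ocm, the level of mir-145-5p was 0.32 in brain and negative in the other 5. That of mir-143-3p was 0.14 in spleen and 0.40 in brain and negative in the other 4. These signs of the levels depend on the scaling. With TMM, mir-145-5p was higher in SHR in testis as well as in brain. With TMM, mir-143-3p was lower in SHR spleen, at 4984 against 6112 TMM-scaled CPM in BN-Lx. It was then higher in SHR heart, at 11500 against 11321, and in SHR liver, at 3513 against 3394.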

How the results depend on the processing

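In liver 0 arms were called with the replicate block (mir-145-5p at -0.23, mir-143-3p at -0.15 and mir-145-3p at 0.16, no call changed), without any 1 liver (0 to 0), with other scaling or no filter; DESeq2 called 1 arm and the study's window test 5, none of the pair. Over the 6 tissues 0 arms were called under every alternative run. No arm of the pair was called between strains under any of these. The log2 fold change of mir-145-3p turned from 0.21 to -0.19 in the 4 further livers alone and to -0.034 with the liver set as a term (chosen after seeing the data). Leaving out 1 liver gave -0.56 to 0.44 for mir-145-3p, -0.65 to 0.42 for mir-143-3p, -0.39 to 0.086 for mir-145-5p and -0.77 to 0.64 for the log2 ratio of the arms. The causes were not tested.

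Between the liver sets, leaving out 1 liver, and so testing fewer samples, gave 15 to 47 calls against 77. RLE factors called 42 of 76 arms higher, the ocm 33 of 68 and DESeq2 58 of 102. By read ends, arms called by length went from 5 to 0 with at least 50 reads, and those by start from 1 to 0 with at least 50 reads, without testis and on the logit scale.

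TMM scaling moved mir-145-5p to 3.75-fold in heart and 1.12-fold in testis over the mean of the other 4 tissues. By Spearman's rho, 2 of the 5 arms most like mir-145-5p and 3 of the 5 most like mir-143-3p were shared with Pearson's r. Depth limits mir-145-3p and mir-143-5p, which have few reads in most libraries.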
